A study of Mus musculus with 24 samples.

Results

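The 7 genes described here form the positive limb of the circadian clock and the loop that controls it: Clock, Npas2, Arntl, Nr1d1, Nr1d2, Rora and Rorb. They were chosen by name, as the transcriptional activators of the clock and the REV-ERB and ROR receptors. Earlier results of these data were known at that choice, so counts of members beside shares of all genes are not independent evidence. All 7 were found among the 51826 genes of the count table and passed the filter on low counts in every comparison. RNA was sequenced from the dorsal hippocampus of male mice on a C57BL/6J background aged 2 to 4 months. WT animals were compared with CBP KIX/KIX littermates, which carry 3 point mutations in the KIX domain of the coactivator CBP in every tissue, so that phosphorylated CREB and c-Myb cannot bind there.

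In RNA-Seq 1, which used ribosome-depleted total RNA, there were 3 libraries from WT homecage mice, and 3 each from WT and CBP KIX/KIX mice killed 1 h after the last trial of 3 days of training in the Morris water maze (MWM). In RNA-Seq 2, which used polyA-selected RNA, there were 3 WT and 4 CBP KIX/KIX homecage libraries, and 4 of each genotype from mice killed 1 h after contextual fear conditioning (CFC). CBP KIX/KIX homecage mice are present only in RNA-Seq 2. Tissue was taken between ZT3 and ZT6, the early part of a 12 h light phase, so levels here belong to a single window of the day and no rhythm can be read from them. Task, library type and sequencing run change together between the 2 experiments and cannot be told apart. Total counts were 38174044 to 65709282 per library in RNA-Seq 1 and 15385836 to 46056290 in RNA-Seq 2, and no member had fewer than 281 counts in any library. In RNA-Seq 2 replicates 1 and 2 of every group held 30143949 counts or more, and replicates 3 and 4 held 20568337 or fewer. WT homecage mice of RNA-Seq 2 have no replicate 4, so the homecage genotypes differ in their mix of depths.

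As background, CLOCK or its paralog NPAS2 pairs with BMAL1, the product of Arntl, and the pair activates genes that carry E-boxes. Among those genes are Nr1d1 and Nr1d2, which encode the nuclear receptors REV-ERB alpha and REV-ERB beta. The REV-ERBs repress Arntl, Clock and Npas2 through ROR elements, where ROR alpha and ROR beta, the products of Rora and Rorb, act as activators. Nr1d1 transcript cycles strongly in most tissues. CBP is a histone acetyltransferase that CREB and the CLOCK:BMAL1 pair recruit.

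The genes lie on 7 chromosomes of GRCm38. Clock spans chr5:76209868-76304792, Npas2 chr1:39193731-39363236, Arntl chr7:113207465-113314126 and Nr1d1 chr11:98767932-98775333. Nr1d2 spans chr14:18204054-18239127, Rora chr9:68653786-69388246 and Rorb chr19:18930605-19111196. Rora is the longest of them, at 734461 bases, and Nr1d1 the shortest, at 7402 bases.

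The windows around the start sites of Nr1d1, Nr1d2 and Arntl are shown because they join the 2 receptors to the gene they repress. Each holds 250 bases before and 50 after a RefSeq start, on the gene's strand of GRCm38.p6, with motif matches on either strand in capitals.
Nr1d1, chr11:98775328-98775627, minus strand: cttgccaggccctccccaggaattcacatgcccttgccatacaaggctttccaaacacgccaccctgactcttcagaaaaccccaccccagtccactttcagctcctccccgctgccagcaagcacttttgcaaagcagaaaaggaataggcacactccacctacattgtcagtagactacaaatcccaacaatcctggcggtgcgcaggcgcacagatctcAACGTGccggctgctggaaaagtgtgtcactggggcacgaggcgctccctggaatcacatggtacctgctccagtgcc
Nr1d2, chr14:18239057-18239356, minus strand: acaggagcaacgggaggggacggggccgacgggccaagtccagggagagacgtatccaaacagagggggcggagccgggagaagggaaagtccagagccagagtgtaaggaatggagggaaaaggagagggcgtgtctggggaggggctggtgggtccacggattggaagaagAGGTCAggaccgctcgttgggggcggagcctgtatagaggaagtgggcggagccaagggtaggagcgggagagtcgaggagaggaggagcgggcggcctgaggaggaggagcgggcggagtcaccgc
Arntl, chr7:113207261-113207560, plus strand: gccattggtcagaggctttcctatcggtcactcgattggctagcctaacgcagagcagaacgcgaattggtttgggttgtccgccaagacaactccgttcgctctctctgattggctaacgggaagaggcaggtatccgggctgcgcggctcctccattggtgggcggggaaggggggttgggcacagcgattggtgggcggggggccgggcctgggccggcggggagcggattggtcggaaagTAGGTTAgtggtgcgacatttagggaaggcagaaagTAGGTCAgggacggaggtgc

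Arntl had 2 windows, and the 1 shown was picked because it holds TAGGTCA, so the share of windows below is no fair reference for that match. It held both forms of the ROR element that were searched, TAGGTTA starting 6 bases before the start and TAGGTCA at position 31 after it. The other Arntl window, chr7:113207215-113207514, overlaps the first and held only TAGGTTA of these forms, at position 41 after its start. Of the 32851 promoter windows of all genes, 1.44% held TAGGTTA and 2.61% held TAGGTCA on either strand. No other member's window held either form. The Nr1d1 window held the E-box variant CACGTT on the opposite strand, 28 bases before the start, a motif found in 4.68% of windows and also in a window of Rorb. The Nr1d2 window held AGGTCA, the core that nuclear receptors share, 77 bases before the start. AGGTCA lies within TAGGTCA and occurred in 16.3% of windows, so it was also found in Arntl and in a window of Clock. The E-box CACGTG, found in 7.15% of windows, the CRE TGACGTCA, found in 1.79%, its shorter form TGACG, found in 20.8%, and the D-box TTATGTAA, found in 0.938%, were not in any window of the 7 genes.

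Levels were compared between genes as CPM per kb of exon. Nr1d1 was the highest member in every group, with a mean of 14.5 ± 1.57 (SD; 3 libraries) in the mutants after MWM at the low end and 24.5 ± 1.56 (4 libraries) in WT mice after CFC at the high end. Nr1d2 came next in every group, from 8.48 ± 1.38 (n = 3) to 15.6 ± 0.555 (n = 4) CPM per kb, and its libraries did not overlap those of Nr1d1 within any group. Clock, Npas2 and Arntl followed between 3.74 and 6.18 CPM per kb, and Arntl overlapped at least 1 of the other 2 in all 7 groups. Their order cannot be fixed, because with the length of the longest transcript in place of all exons Arntl was the highest of these 3 in WT homecage mice of RNA-Seq 2, at 8.55 CPM per kb, against 6.90 for Clock and 6.99 for Npas2. Rora and Rorb were lowest, at 1.64 to 2.69 and 1.54 to 1.78 CPM per kb. They did not overlap in the 3 groups of RNA-Seq 1 or in WT homecage mice of RNA-Seq 2, and overlapped in the other 3 groups. Across the WT homecage mice of RNA-Seq 2 the highest member stood 14.5 times above the lowest.

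**Figure D1:**
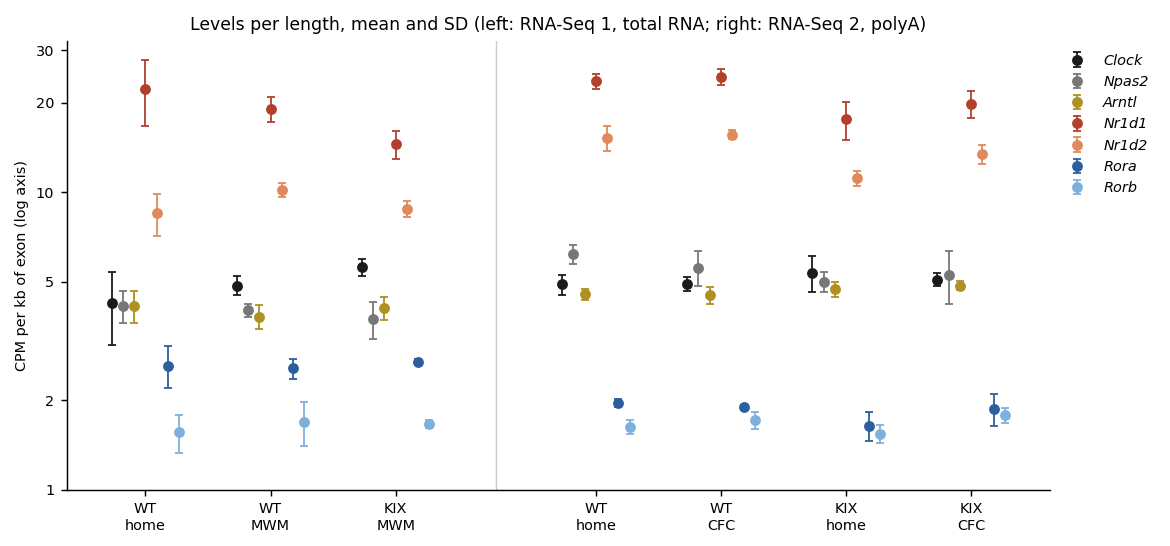
Mean level per length (CPM per kb of exon, log axis) of the 7 genes in the 7 groups, with bars for the SD over 3 or 4 libraries. Nr1d1 and Nr1d2 stand above the other 5 genes in every group, and Nr1d1 lies lower in the CBP KIX/KIX groups than in the WT groups of the same experiment.

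Some members differed between the library types. In WT homecage mice Nr1d2 was 1.79 times and Npas2 1.49 times as high in RNA-Seq 2 as in RNA-Seq 1, and Rora was 0.75 times as high, with no overlap of libraries for these 3 genes. The ratios of the other 4 lay between 1.05 and 1.16. Values are therefore compared within an experiment throughout.

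Homecage WT libraries of RNA-Seq 1 did not form a tight group. Clock was 47.0, 50.8 and 76.6 CPM in replicates 1 to 3, and Nr1d1 was 71.5, 83.5 and 49.9 CPM. The summed level of 10 markers of hippocampal neurons in these libraries was 6331, 6130 and 4314 CPM, against 4683 to 5646 in the 6 maze libraries of this experiment. Choroid plexus markers (8 genes, Ttr the most abundant) summed to between 29.9 and 4155 CPM across the 24 libraries and ranged widely within every group. Crebbp, which encodes CBP, carries point mutations that do not remove its transcript, and its level does not check the genotype labels: it was 170 to 229 CPM in WT and 165 to 193 CPM in CBP KIX/KIX mice after MWM, and 60.4 to 69.6 CPM and 61.1 to 69.9 CPM after CFC.

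The first comparison asked which genes differed between CBP KIX/KIX and WT mice after learning, over both tasks. Both REV-ERB genes were lower in the mutant and Clock was slightly higher, while the remaining 4 members did not pass the test. Nr1d1 in RNA-Seq 1 was 54.8, 65.2 and 56.2 CPM in WT mice after MWM and 48.6, 39.2 and 45.9 CPM in CBP KIX/KIX mice. After CFC it was 81.9, 75.4, 72.7 and 70.9 CPM in WT and 70.2, 60.9, 56.0 and 56.8 CPM in CBP KIX/KIX mice. All mutant libraries lay below all WT libraries in both experiments, although the highest mutant value after CFC came within 1 CPM of the lowest WT value. The ratio of means was 0.759 after MWM and 0.811 after CFC, and the fitted log2 fold change was -0.34 ± 0.036 (SE; adjusted p = 0.000253, edgeR).

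Nr1d2 showed the same order. It was 53.5, 53.0 and 58.4 CPM in WT and 48.3, 44.3 and 50.1 CPM in CBP KIX/KIX mice after MWM. After CFC it was 81.5, 88.4, 82.9 and 85.1 CPM in WT and 79.6, 67.9, 69.6 and 73.8 CPM in CBP KIX/KIX mice. The 2 genotypes did not overlap in either experiment, with ratios of means of 0.866 and 0.861 and a log2 fold change of -0.21 ± 0.037 (adjusted p = 0.00853, edgeR). Among all 22408 genes compared library by library, 9.22% lay wholly lower in the mutant after MWM and 1.23% after CFC, where 1.11% lay wholly higher. The log2 ratio of Nr1d2 to Nr1d1 counts was -0.30 to 0.06 in WT and -0.01 to 0.18 in CBP KIX/KIX mice after MWM, and -0.01 to 0.26 and 0.16 to 0.38 after CFC, so the genotypes overlapped in this ratio.

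Clock, the histone acetyltransferase partner of BMAL1, was 61.0, 68.7 and 70.1 CPM in WT and 72.1, 81.7 and 76.6 CPM in CBP KIX/KIX mice after MWM, with no overlap. Among all genes 7.97% lay wholly higher in the mutant there. After CFC it was 64.5, 64.7, 70.1 and 71.1 CPM in WT and 69.1, 65.5, 71.1 and 73.6 CPM in CBP KIX/KIX mice, and the genotypes overlapped. The combined log2 fold change was 0.12 ± 0.028 (adjusted p = 0.0297, edgeR), a difference of 1.15 times after MWM and 1.03 times after CFC in the means. This call was lost when any of 5 libraries was left out, namely WT MWM replicate 1, CBP KIX/KIX MWM replicate 1 or 2, WT CFC replicate 1 or CBP KIX/KIX CFC replicate 4, with adjusted p between 0.0554 and 0.157. It was also lost with DESeq2 (adjusted p = 0.321) and without the filter on low counts (adjusted p = 0.115, edgeR).

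Arntl was 31.7, 27.3 and 27.2 CPM in WT and 27.6, 31.4 and 32.8 CPM in CBP KIX/KIX mice after MWM, and 31.4 to 36.7 and 34.6 to 37.5 CPM after CFC. Its log2 fold change was 0.11 ± 0.048 with a 95% interval of 0.01 to 0.21, and it did not pass (adjusted p = 0.245, edgeR). Npas2, the paralog of Clock found mainly in forebrain, gave -0.10 (95% interval -0.23 to 0.03), Rora 0.03 (-0.06 to 0.11) and Rorb 0.03 (-0.07 to 0.13). Rora in CBP KIX/KIX mice after MWM was among the least variable values of the set, at 34.8, 36.0 and 34.8 CPM.

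Thus 3 of the 7 members were called, 1 higher and 2 lower, beside 2.42% of the 21489 genes tested (0.982% higher and 1.44% lower), and 4 members had an unadjusted p under 0.05, as did 17.8% of all genes. The calls rest on 4 factors of unwanted variation estimated from residuals (RUVr). Without them the estimates hardly moved, at -0.34 for Nr1d1, -0.21 for Nr1d2 and 0.12 for Clock, but 0 of 7 members and 4 of all genes, 0.0186%, passed (edgeR; adjusted p = 0.0743, 0.108 and 0.513), and 4 members had an unadjusted p under 0.05, as did 8.81% of all genes. The study also normalized GC content before scaling, a step left out of the fit above. With it 2 members and 180 genes were called in place of 3 and 520: Nr1d1 (-0.30, adjusted p = 0.000734, edgeR) and Nr1d2 (-0.31, adjusted p = 0.00367) passed, and Clock did not (0.09, adjusted p = 0.14). DESeq2 without such factors called 83 genes, among them Nr1d1 (adjusted p = 0.00323) and Nr1d2 (adjusted p = 0.00899). On simulated counts the fit with 4 factors also called genes that had not been changed, more often than its nominal rate, and the fit without factors did not, so the 3 calls are given beside the tests that use no factors.

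Within each experiment, fitted without factors, the estimates for Nr1d1 were -0.39 ± 0.094 in RNA-Seq 1 and -0.30 ± 0.072 in RNA-Seq 2, and those for Nr1d2 were -0.20 ± 0.073 and -0.21 ± 0.053. Clock gave 0.22 ± 0.078 and 0.05 ± 0.05. No member passed in either experiment alone, beside 0.0141% and 0.0057% of genes (edgeR), and 3 and 2 of the 7 had an unadjusted p under 0.05, as did 10.5% and 3.47% of genes.

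In an exact two-sided permutation test that exchanged genotype labels within each experiment, over 1400 relabelings, Nr1d1 and Nr1d2 both reached 0.00143, the smallest p the design allows. Of all genes 0.4% reached it. Clock gave an exact p of 0.0257 and Arntl an exact p of 0.0657. In all, 3 of the 7 members had an exact p under 0.05, as did 8.93% of all genes, and after adjustment over all genes the lowest value was 0.357.

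**Figure D2:**
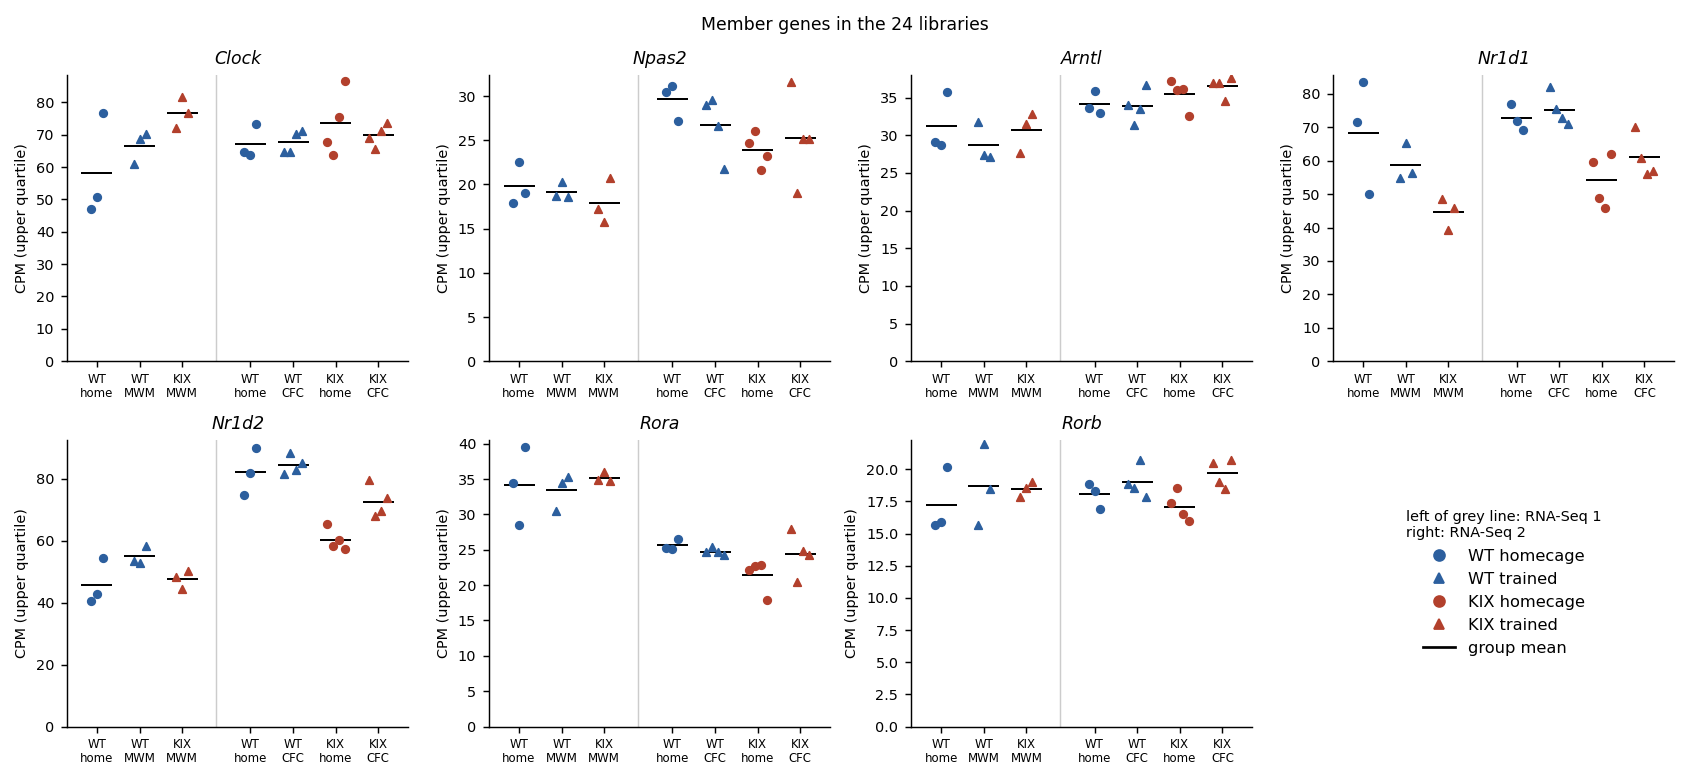
CPM with upper-quartile scaling of each member in the 24 libraries (points), with group means (lines), WT in blue and CBP KIX/KIX in red. In the Nr1d1 and Nr1d2 panels each trained mutant group lies below the trained WT group of its experiment, and the homecage mutant group lies below the homecage WT group.

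Nr1d1 shares 263 bases of exon, 8.55% of its exon length, with Thra on the opposite strand of chromosome 11, and the strand setting of the counting is not given in the sources used here. Thra encodes thyroid hormone receptor alpha and was far more abundant, at 755 to 1129 CPM in the learning groups. Its log2 fold change after learning was -0.004 ± 0.028 (adjusted p = 0.964, edgeR), and in homecage, it was -0.15 ± 0.14 (adjusted p = 0.885).

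Ratios within a library do not depend on the scaling between libraries. The log2 ratio of Arntl to Nr1d1 counts was -1.27 to -0.95 in WT and -0.93 to -0.60 in CBP KIX/KIX mice after CFC. After MWM it was -1.25 to -0.79 in WT and -0.81 to -0.32 in CBP KIX/KIX mice, where WT replicate 1 and mutant replicate 1 crossed. In homecage it was -1.09 ± 0.1 (SD, n = 3) in WT and -0.60 ± 0.263 (n = 4) in CBP KIX/KIX mice of RNA-Seq 2. The log2 ratio of Clock to Nr1d1 was 0.08 to 0.32 in WT and 0.57 to 1.06 in CBP KIX/KIX mice after MWM. In homecage it was -0.25 to 0.09 against 0.18 to 0.72, and it overlapped slightly after CFC. How often ratios of other gene pairs lie apart was not computed. In both ratios the activator stood higher on average relative to Nr1d1 in the mutant groups. Both ratios take in the difference in Nr1d1 itself, so they are not separate results.

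**Figure D3:**
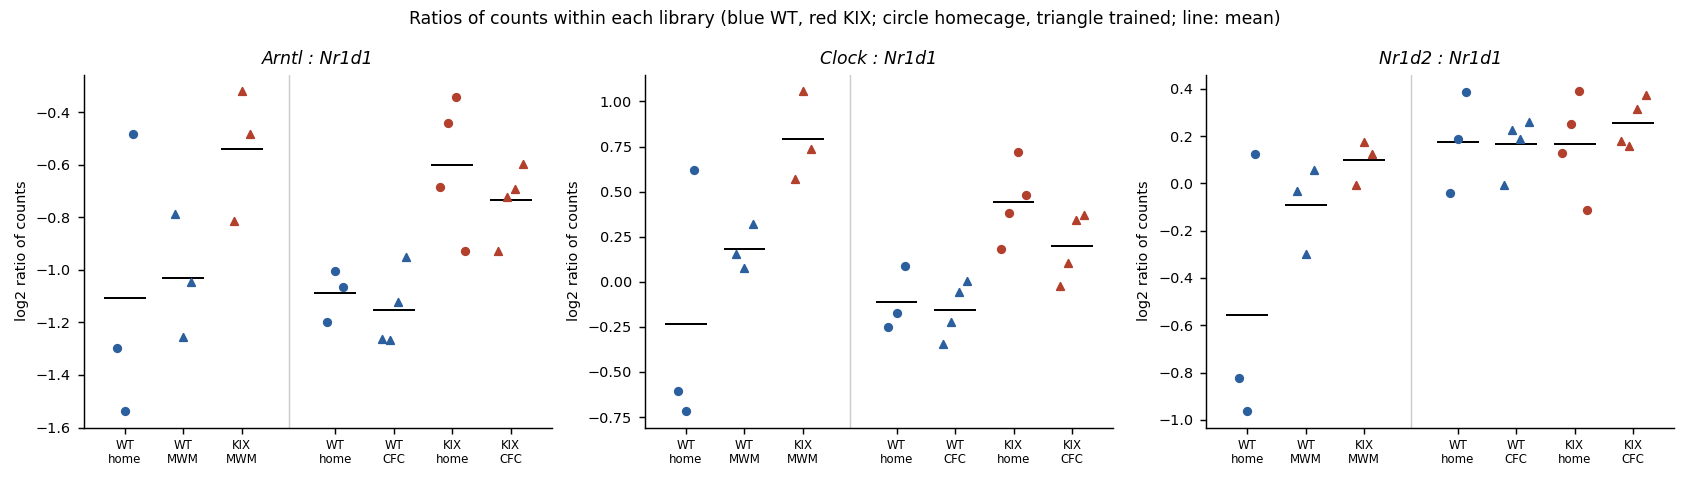
Log2 ratios of counts within each library for 3 pairs of members, with group means as lines. The means of the Arntl to Nr1d1 and Clock to Nr1d1 ratios lie higher in CBP KIX/KIX mice. Libraries of the genotypes overlap after MWM in the first ratio and after CFC in the second. The Nr1d2 to Nr1d1 ratio overlaps between genotypes in every setting.

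The second comparison asked whether the genotypes differed in homecage mice without training, in RNA-Seq 2 alone. Nr1d2 was 74.8, 81.8 and 90.2 CPM in WT and 65.3, 58.2, 60.2 and 57.4 CPM in CBP KIX/KIX mice. Nr1d1 was 77.0, 71.9 and 69.1 CPM in WT and 59.7, 48.9, 45.8 and 62.0 CPM in CBP KIX/KIX mice. Npas2 was 30.5, 31.1 and 27.2 CPM in WT and 24.7, 26.0, 21.7 and 23.3 CPM in CBP KIX/KIX mice. Rora was 25.2, 25.2 and 26.5 CPM in WT and 22.2, 22.7, 22.9 and 17.8 CPM in CBP KIX/KIX mice. For these 4 members every mutant library lay below every WT library, beside 3.52% of all genes that lay wholly lower and 2.94% wholly higher.

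None of the 7 passed the adjustment here, beside 0.0107% of the 18682 genes tested. The log2 fold change was -0.45 ± 0.078 for Nr1d2 (unadjusted p = 0.00029, adjusted p = 0.329, edgeR), -0.43 ± 0.107 for Nr1d1 (adjusted p = 0.683), -0.31 ± 0.084 for Npas2 (adjusted p = 0.786) and -0.25 ± 0.095 for Rora (adjusted p = 0.798). These 4 had an unadjusted p under 0.05, as did 6.12% of all genes, and DESeq2 called Nr1d2 alone of the members (adjusted p = 0.00117), among 57 genes against 2 with edgeR. The median over the 7 members was -0.25 and over all genes -0.002. Clock, Arntl and Rorb gave 0.13, 0.06 and -0.08 with intervals that span 0.

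Marker sums also varied among these homecage libraries, not always along genotype. Astrocyte markers (6 of 6 detected) summed to 3170, 3214 and 3320 CPM in WT and to 3321, 3604, 4220 and 5104 CPM in CBP KIX/KIX mice, with the highest sum in mutant replicate 4, which also had the lowest Rora and the highest Clock value (86.6 CPM). Thalamus markers (8 of 8 detected) summed to 115 to 120 CPM in WT and to 89.3, 73.2, 85.0 and 128 CPM in CBP KIX/KIX mice. Their part in the result was not tested. Without mutant replicate 4 the log2 fold change was -0.42 for Nr1d2, -0.49 for Nr1d1, -0.29 for Npas2 and -0.17 for Rora. In bulk tissue, fewer cells of a type and less RNA per cell cannot be told apart.

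Whether the genotype difference changed with CFC was tested directly as an interaction in RNA-Seq 2. Nr1d2 gave an interaction of 0.23 ± 0.096 (95% interval 0.03 to 0.44, unadjusted p = 0.0263, adjusted p = 0.95, edgeR), and 1 of 7 members had an unadjusted p under 0.05, as did 4.79% of all genes. Nr1d1 gave 0.13 (-0.16 to 0.42), and 0 members and 0 of 18851 genes passed (edgeR). The genotype difference after MWM against that after CFC was not called for any member or gene either. Its interaction was 0.09 (-0.18 to 0.36) for Nr1d1, -0.02 (-0.20 to 0.17) for Nr1d2 and -0.16 (-0.35 to 0.02) for Clock, with 0 of 7 members and 6.46% of all genes at an unadjusted p under 0.05.

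**Figure D4:**
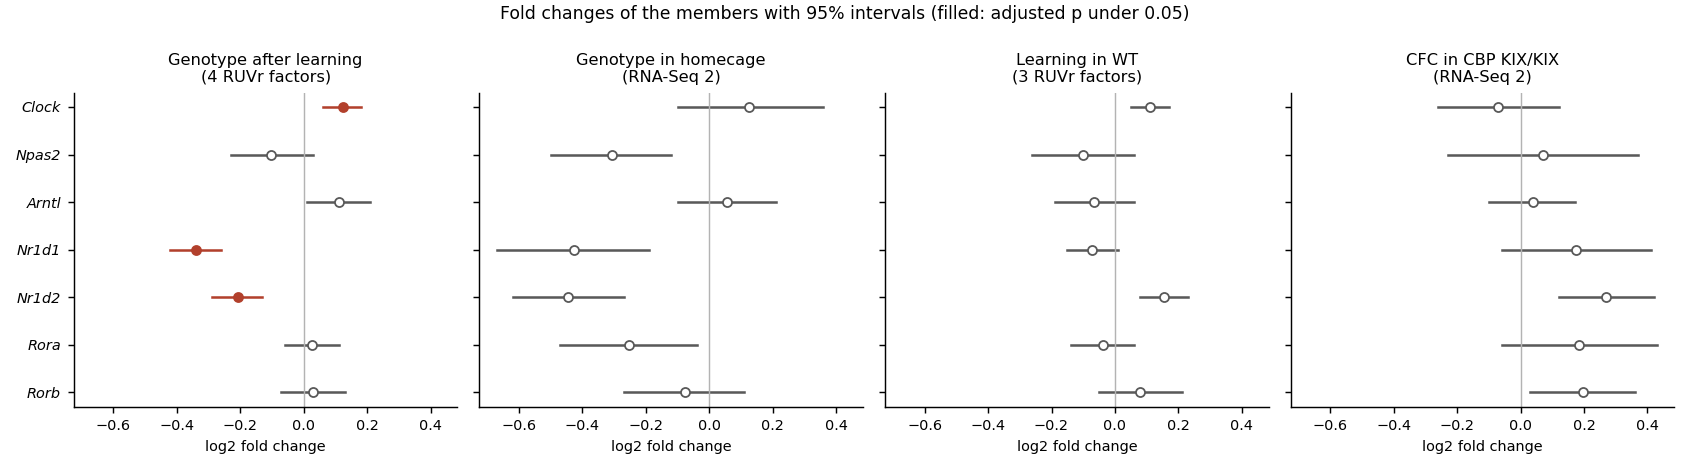
Log2 fold changes of the 7 members with 95% intervals in 4 comparisons (mutant over WT in the left pair of panels, trained over homecage in the right pair). Filled points passed the adjusted p of 0.05: Clock, Nr1d1 and Nr1d2 in the genotype comparison after learning.

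The third comparison asked what learning did in WT mice, over both tasks. Nr1d2 and Clock had the largest estimates, and neither passed. Nr1d2 in RNA-Seq 1 was 40.5, 42.8 and 54.4 CPM in homecage and 53.5, 53.0 and 58.4 CPM after MWM. In RNA-Seq 2 it was 74.8, 81.8 and 90.2 CPM in homecage and 81.5 to 88.4 CPM after CFC, so the groups overlapped in both. Its log2 fold change was 0.15 ± 0.036 (adjusted p = 0.0656, edgeR) and that of Clock 0.11 ± 0.028 (adjusted p = 0.0761). The other estimates were -0.10 for Npas2, -0.07 for Arntl, -0.07 for Nr1d1, -0.04 for Rora and 0.08 for Rorb. In all, 0 of 7 members were called, beside 0.794% of 22038 genes, 2 members had an unadjusted p under 0.05, as did 16.9% of all genes, and DESeq2 called 0 members. The trained and homecage libraries of WT mice overlapped for all 7 members in both tasks, beside 9.49% of genes wholly lower and 3.96% wholly higher after MWM and 2.41% and 2.57% after CFC. Without the RUVr factors 0 of 7 members passed, beside 0.0408% of genes, and 0 had an unadjusted p under 0.05, as did 6.78% of genes.

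Within experiments the estimates for Nr1d2 were 0.26 ± 0.124 after MWM and 0.04 ± 0.061 after CFC, and those for Clock were 0.20 ± 0.163 and 0.01 ± 0.059. Nr1d1 was -0.21 after MWM and 0.05 after CFC. No member passed, beside 0.0139% of genes after MWM and 0.116% after CFC (edgeR), and 0 had an unadjusted p under 0.05, as did 9.17% and 3.91% of genes. The learning by experiment interaction was -0.22 ± 0.138 for Nr1d2 (adjusted p = 0.725, edgeR), and 0 of 7 members were called, beside 0.0136% of genes, with 0 members and 7.46% of genes at an unadjusted p under 0.05.

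The WT learning result depends on the scattered homecage group of RNA-Seq 1. Without its replicate 3, Clock (0.20, adjusted p = 0.00305, edgeR), Nr1d2 (0.20, adjusted p = 0.00779) and Nr1d1 (-0.15, adjusted p = 0.0269) were called, and the number of called genes went from 175 to 2415. Without it Clock and Nr1d1 were also called in the learning by experiment interaction, at -0.44 (adjusted p = 0.0366) and 0.45 (adjusted p = 0.0468), where 892 genes were called in place of 3. Nr1d2 and Clock were called as well without WT homecage replicate 3 of RNA-Seq 2 (adjusted p = 0.0156 and 0.0329), where 534 genes were called, and without WT CFC replicate 1 (adjusted p = 0.0443 and 0.0496), where 471 were called. With replicate number as a block besides the 3 factors, Nr1d2 passed at 0.16 (adjusted p = 0.0348) and 992 genes were called, and with the block but no factors no member and 12 genes were called.

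In the exact permutation test over 700 relabelings, 0 of the 7 members had an exact p under 0.05 for learning in WT mice, beside 5.68% of all genes, with the lowest exact p at 0.129 for Nr1d2. Labels were exchanged freely within each experiment, so this test ignores the pairing by replicate number. Without WT homecage replicate 3 of RNA-Seq 1 the exact p of Nr1d2 was 0.0371, and without that of RNA-Seq 2 it was 0.0367.

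The fourth comparison asked what CFC did in CBP KIX/KIX mice. Nr1d2 was 65.3, 58.2, 60.2 and 57.4 CPM in homecage and 79.6, 67.9, 69.6 and 73.8 CPM after CFC, with no overlap, beside 2.23% of all genes that lay wholly higher and 2.22% wholly lower. Its log2 fold change was 0.27 ± 0.066 (unadjusted p = 0.00228, adjusted p = 0.491, edgeR). Rorb gave 0.20 ± 0.075 (unadjusted p = 0.0242) from 16.0 to 18.6 CPM in homecage and 18.5 to 20.7 CPM after CFC, where the groups overlapped. Nr1d1 gave 0.18 and Rora 0.18, with intervals that span 0. No member was called, beside 0.0113% of 17717 genes, and 2 of 7 had an unadjusted p under 0.05, as did 9.43% of all genes. DESeq2 called 0 members. This comparison shares its homecage mice with the homecage genotype comparison, in which Nr1d2 was lower in the mutant.

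Genes around the loop were taken from 4 lists of clock biology that were drawn up with earlier results of these data known, so their directions are not independent evidence. Among 13 genes driven through E-boxes, 6 were called lower and 1 higher in the mutants after learning, beside 1.44% and 0.982% of all genes. The median log2 fold change of the 13 was -0.095, against -0.007 over all genes. Those lower were Dbp, a PAR bZIP activator (-0.47 ± 0.054, adjusted p = 0.000589, edgeR), Ciart, a repressor of CLOCK:BMAL1 (-0.45 ± 0.084, adjusted p = 0.0127), the Period genes Per2 (-0.31), Per1 (-0.30) and Per3 (-0.26), and Bhlhe41, a repressor of E-box transcription (-0.21, adjusted p = 0.0493). Nampt, which makes a precursor of NAD, was higher (0.16 ± 0.036, adjusted p = 0.0283). Without the RUVr factors 0 of the 13 were called and 7 had an unadjusted p under 0.05, beside 8.81% of all genes.

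In homecage 0 of these 13 were called in CBP KIX/KIX against WT mice, and 8 had an unadjusted p under 0.05, beside 6.12% of all genes. The median was -0.27, against -0.002 over all genes, and values ran from 0.45 for Bhlhe41 (adjusted p = 0.816, edgeR), opposite in sign to its value after learning, to -0.70 for Dbp (adjusted p = 0.786, edgeR) and -0.70 for Hlf (adjusted p = 0.798). After learning in WT mice Per1 was the only one of the 13 called, at 0.44 ± 0.044 (adjusted p = 0.00037, edgeR), beside 0.794% of all genes. Without the RUVr factors its estimate was 0.43 and it was not called (adjusted p = 0.239, edgeR). With the factors 4 of the 13 had an unadjusted p under 0.05, as did 16.9% of all genes, and without them 3 did, as did 6.78%. In CBP KIX/KIX mice after CFC 0 of the 13 were called, beside 0.0113% of all genes, and 3 had an unadjusted p under 0.05, as did 9.43%. This comparison shares its homecage mice with the homecage genotype comparison, so their estimates are not independent. After CFC the median was 0.23, against 0.004 over all genes, and 12 of the 13 estimates were above 0. Bhlhe41, the exception, had the largest estimate in size of the 13, at -0.61 ± 0.219 (unadjusted p = 0.0195, adjusted p = 0.491, edgeR).

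The other lists held no called gene in any of the 4 comparisons, where in order 2.42%, 0.0107%, 0.794% and 0.0113% of all genes were called. These lists were 5 further ROR-element and activator genes such as Nfil3, 12 corepressors and coactivators such as Ncor1 and Hdac3, through which the REV-ERBs repress, and 13 clock kinases and ubiquitin ligases such as Csnk1d. Their median log2 fold changes after learning were -0.013, -0.003 and 0.009, against -0.007 over all genes. In the genotype comparison after learning the estimates did not go beyond 0.12, 0.11 and 0.15 in size. Ncor1, the corepressor that REV-ERBs bind, gave 0.08 there (adjusted p = 0.128, edgeR), and Hdac3, its deacetylase, -0.09 (adjusted p = 0.143). In homecage the largest estimates of these lists were 0.48, 0.12 and 0.25 in size, and for CFC in CBP KIX/KIX mice 0.25, 0.24 and 0.24.

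**Figure D5:**
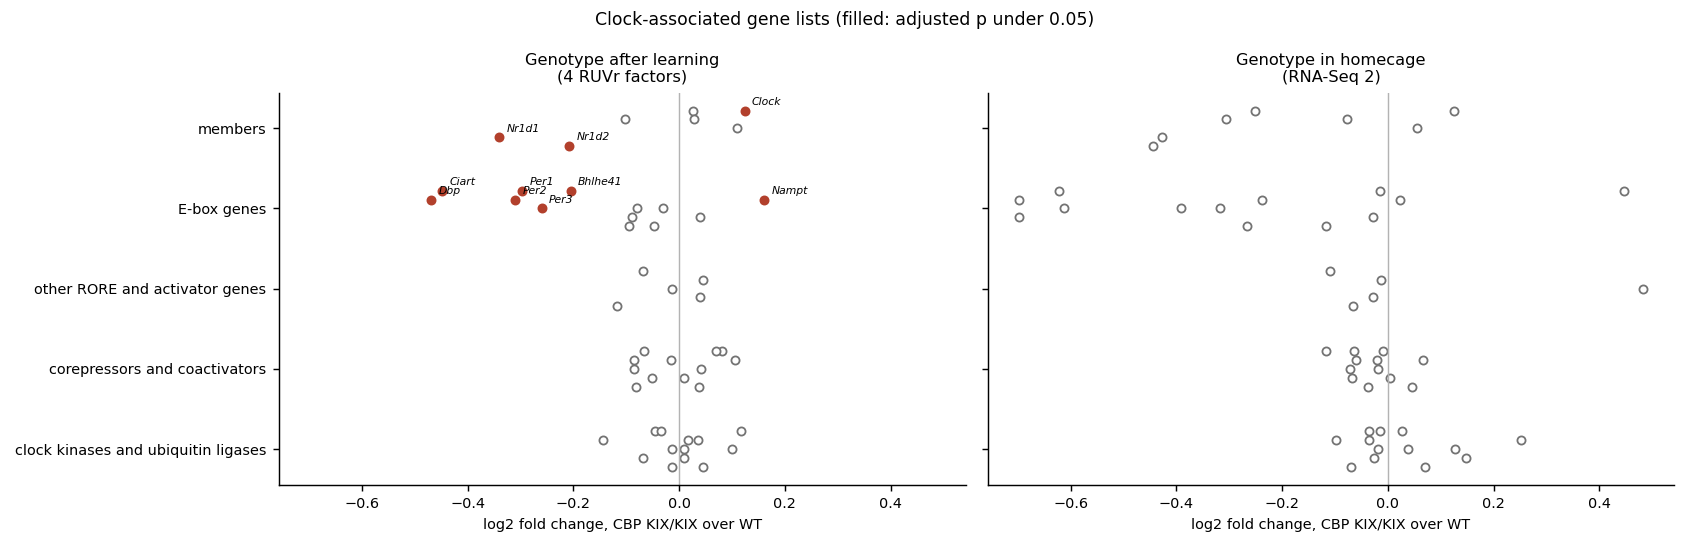
Log2 fold changes (CBP KIX/KIX over WT) of the members and of 4 lists of clock genes, after learning and in homecage, with called genes filled and named. After learning the called genes other than the members are 6 lower and 1 higher among the 13 E-box genes, and none is called in homecage. Of all genes 1.44% were called lower and 0.982% higher after learning.

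By correlation over the 24 libraries, after the mean of each experiment was removed, the genes most like each member were found among 22408. Clock followed Wapl (Pearson r = 0.963), Washc4 (0.963) and Bmpr1a (0.959), and Nr1d1 followed Afap1 (0.887), Bahcc1 (0.874) and Sema4b (0.853). Npas2 followed Amn (0.873), Cplx3 (0.861) and Lgi2 (0.858), and Rora followed Erich3 (0.87), Mme (0.839) and Bend6 (0.809). Nr1d2 followed Osbpl1a (0.823), Pacsin2 (0.775) and Aldh6a1 (0.775), and Rorb followed Kcnb2 (0.775), Dmd (0.763) and Galr2 (0.742). Arntl had the weakest partners, Gm26826 (0.706), Snai2 (0.687) and Fam124b (0.685). Within RNA-Seq 1 and RNA-Seq 2 some partners, such as Wapl (0.97 and 0.948), had alike values. Others held mainly in 1 experiment, such as Cplx3 (0.582 and 0.93), Bend6 (0.581 and 0.895), Aldh6a1 (0.493 and 0.903) and Gm26826 (0.809 and 0.503). The other members were left out of this search. All points share their library and its depth, so these values are descriptions.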

How the data were processed

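RNA-Seq was performed on 24 dorsal hippocampus samples in 2 experiments. The authors deposited whole-number read counts per Ensembl gene, and the labels name STAR, SAMtools 1.6 and featureCounts 1.4.4 with mm10/GRCm38. The annotation release and strand setting are not given in the sources used here. Of 51826 identifiers, 51633 matched GENCODE M21, which gave symbols, exon lengths and positions, and promoter sequences were taken from RefSeq (GRCm38.p6). Lists were matched by symbol; of the 8 neocortex markers 7 were found.

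Genes were kept by filterByExpr, scaled by the upper quartile and tested with edgeR 4.0.16 (quasi-likelihood, Benjamini-Hochberg over all genes, adjusted p under 0.05). As in the study, 4 RUVr factors entered the genotype comparison after learning, 3 the WT learning comparison and none the others. The study also applied full-quantile GC-content normalization before scaling, which was left out here and run as an alternative. CPM used upper-quartile scaling, and log2 CPM for permutation a prior count of 2. DESeq2 1.42.0, TMM, other numbers of factors, no filter and leaving out each library were tried. Scripts were tested on simulated data, where the fit with 4 factors also called unchanged genes.

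Groups follow the labels. Replicates are separate libraries labelled as such; no source here states the animal of each, so p-values measure the spread between these samples. Same-numbered libraries deviated together in every pair, taken as a correlation over 0.1, for MWM and CFC in WT mice (correlations from 0.1 to 0.38) and CFC in CBP KIX/KIX mice (0.15 to 0.25). Between the homecage genotypes the correlations were all positive, at 0.07 to 0.24, but not all over 0.1. Their mean was 0.15, against -0.05 for libraries of unlike number. The labels do not say what the numbers mark. In RNA-Seq 2 they go with depth, higher in replicates 1 and 2 than in replicates 3 and 4 of every group. The part of depth by itself in the results was not tested. The main fits and the permutation tests did not use them, and fits with replicate number as a block were run as alternatives. Pairs within a group differed by more than counting noise (chi-square per gene 2.74 or more).

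Genes named are the members, Crebbp, Thra, genes of the lists that passed or illustrate a list, and the 3 genes most like each member. Members and lists were chosen with earlier results of these data known. Across the 24 libraries the summed markers of neocortex ran from 128 to 195 CPM, of oligodendrocytes from 2427 to 4881, of microglia from 161 to 282 and of endothelium from 100.4 to 177.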

Additional observations from a re-analysis of the deposited data

Results flagged for a closer look

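Rora in homecage CBP KIX/KIX mice was 17.8 CPM in replicate 4, against 22.2 to 22.9 CPM in the other 3 libraries of that group. The gap to its nearest neighbour on the log2 CPM scale was 0.867 of the group's range, above Dixon's critical value. This was 1 of 21 checks, and chance alone gives about 1 in 20. The same library held the highest astrocyte marker sum of the 24, 5104 CPM, and the highest Clock value; the part of these in the low Rora value was not tested.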

How the results depend on the processing

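The count of members called in the genotype comparison after learning went from 3 to 0 without RUVr factors, in RNA-Seq 1 alone, in RNA-Seq 2 alone and with a replicate block but no factors, and was 2 to 3 when single libraries were left out, with 201 to 881 genes called. Over all genes the calls went from 520 to 4, 3, 1 and 8 in those fits, to 180 with GC-content normalization, 83 with DESeq2, 253 without a filter, 315 with 3 factors and 2880 with the replicate block and factors, where 4 members were called. Between the genotypes after learning, same-numbered libraries did not deviate together in every pair. Their correlations ran from -0.16 to -0.01 after MWM and from -0.09 to 0.38 after CFC. The mean after CFC was 0.17, against -0.06 for libraries of unlike number. In WT learning the count of members went from 0 to 1 with the replicate block and factors and ran from 0 to 3 over left-out libraries, with 29 to 2415 genes called, and all genes called went from 175 to 9 without factors, 98 and 290 with 2 and 4 factors, 3 and 21 in each experiment alone, 41 with GC-content normalization, 992 and 12 with the block (with and without factors), 34 with DESeq2 and 84 without a filter. In homecage DESeq2 called 1 member and 57 genes, no filter gave 10 genes and the block 0. For CFC in CBP KIX/KIX mice DESeq2 called 46 genes and leaving out homecage replicate 1 gave 155, and 63 in the genotype by CFC interaction. The learning by experiment interaction called 0 to 2 members over left-out libraries, and 1, 7 and 6 genes with TMM, no filter and the block. The exact permutation test of WT learning gave 0 to 1 member over left-out libraries. With the longest transcript as length the highest member stood 13.8 times above the lowest. Besides Nr1d2 in WT learning and the 3 calls lost above, the block changed the call of Arntl after learning (adjusted p = 0.0209, edgeR with factors) and of no other member.

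Some estimates that had not passed changed direction. After learning, the genotype estimate for Rorb was -0.009 in RNA-Seq 1 alone and -0.039 with GC-content normalization, and -0.019 to 0.084 over left-out libraries, and that for Rora was -0.02 in RNA-Seq 2 alone, -0.044 with GC-content normalization and -0.01 to 0.074. In WT learning Nr1d1 was 0.048 in RNA-Seq 2 alone and -0.15 to 0.013 over left-out libraries, and Rora -0.094 to 0.012. Over left-out libraries, CFC in CBP KIX/KIX mice gave -0.059 to 0.19 for Npas2, -0.128 to 0.015 for Clock and 0 to 0.066 for Arntl, the genotype by CFC interaction -0.139 to 0.005 for Clock, and the genotype by experiment interaction -0.063 to 0.025 for Nr1d2, which was 0.014 without a filter. Differences in the permutation test ran from -0.005 to 0.071 for Rora and -0.033 to 0.089 for Rorb by genotype, and from -0.177 to 0.007 for Nr1d1 and -0.1 to 0.019 for Rora by learning. The causes were not tested.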
